A study of Drosophila melanogaster with 4 samples.

Results

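Of the 2949 peaks in the deposited list of Abd-B-GFP binding in Drosophila melanogaster larvae, 9 lay over Ubx, abd-A and the iab regulatory DNA. They were chosen by position alone, as the peaks on arm 3R whose midpoint fell between 12480000 and 12754999 on FlyBase release 5. This window of 275 kb holds the bithorax complex to the left of the dense run of peaks at Abd-B. Scores and widths played no part in the choice.

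The list comes from chromatin immunoprecipitation and sequencing (ChIP-seq) of larvae at the wandering L3 stage, with 2 ChIP libraries and 2 libraries of input DNA. All 4 libraries share the strain label Abd-B-GFP, the genotype label w; PBac{y[+]-attP-3B}VK00037, and a transgene of the Abd-B genomic coding region that carries GFP in place of the stop codon. The ChIP libraries were made with a rabbit polyclonal antibody against GFP, which targets the tagged copy of the protein. No library from larvae without the tag is among the 4, so signal that does not come from the tag cannot be told apart. The sex is labelled as unknown, no tissue is named, and the collection protocol names y; bw cn sp flies, which is not the strain label. The titles of all 4 libraries hold the term vMock, which they do not explain. How far the transgene reaches into the iab DNA, and whether the peak caller used input or a mock as its control, are stated in none of the sources used here.

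The bithorax complex holds the Hox genes Ubx, abd-A and Abd-B in the order of the body segments they specify. Ubx patterns the posterior thorax and the first abdominal segment, abd-A the middle abdomen and Abd-B the posterior abdomen, where Abd-B represses the other two. Most of the complex is regulatory DNA. The bx and bxd regions control Ubx, the iab regions next to abd-A control abd-A, and the iab regions nearer to Abd-B control Abd-B, with insulators and Polycomb response elements between and within them. No coordinates of those elements were used here, so no peak below is assigned to one.

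The peaks are numbered 1 to 9 from the Ubx side to the Abd-B side. Genes were placed by a RefSeq gene table on release 6, shifted by the 4174278 bp that the selection rule gives for this stretch of 3R. The table carries neither strand nor exons. Ubx, abd-A and Abd-B are known to be transcribed towards lower coordinates, so their right ends are taken as their starts. The score is the authors' own value per peak, with no scale named, and there is no value per library. No measurement below has a replicate error or a test, depth is unknown, and all comparisons are descriptions of 1 list. DNA without a peak is not shown to be unbound.

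Peaks were sparser on the Ubx side of the abd-A gene than over abd-A and the iab DNA. Ubx and the DNA up to abd-A, 150.6 kb in all, held 2 peaks, or 13.3 per Mb. The 120.0 kb of abd-A and the iab DNA up to Abd-B held 7 peaks, or 58.3 per Mb. By interval, the densities were 12.9 peaks per Mb inside Ubx, 13.7 between Ubx and abd-A, 87.6 inside abd-A and 51.5 between abd-A and Abd-B. They rested on 1, 1, 2 and 5 peaks, too few to tell a step from a gradient. The chromosome arms as a whole held 22.1 peaks per Mb, so the abd-A and iab side lay at 2.64 times and the Ubx side, with only 2 peaks, at 0.600 times that density. The direction on the Ubx side turned when only scores of at least 14.2 were kept, an alternative chosen after seeing the data. It then held 13.3 peaks per Mb, against 10.2 on the arms, a ratio of 1.30. The abd-A and iab side stayed above the arms at a ratio of 2.45, from 3 peaks, none of them inside abd-A. With scores of at least 22.4, that side had a ratio of 1.85, from 1 peak, and the Ubx side held 0 peaks. Peaks covered 0.444% of the Ubx side and 1.91% of the abd-A and iab side. Scores did not follow the same order, since both Ubx-side peaks were above the arm median of 13.5, against 3 of the 7 others.

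**Figure D1:**
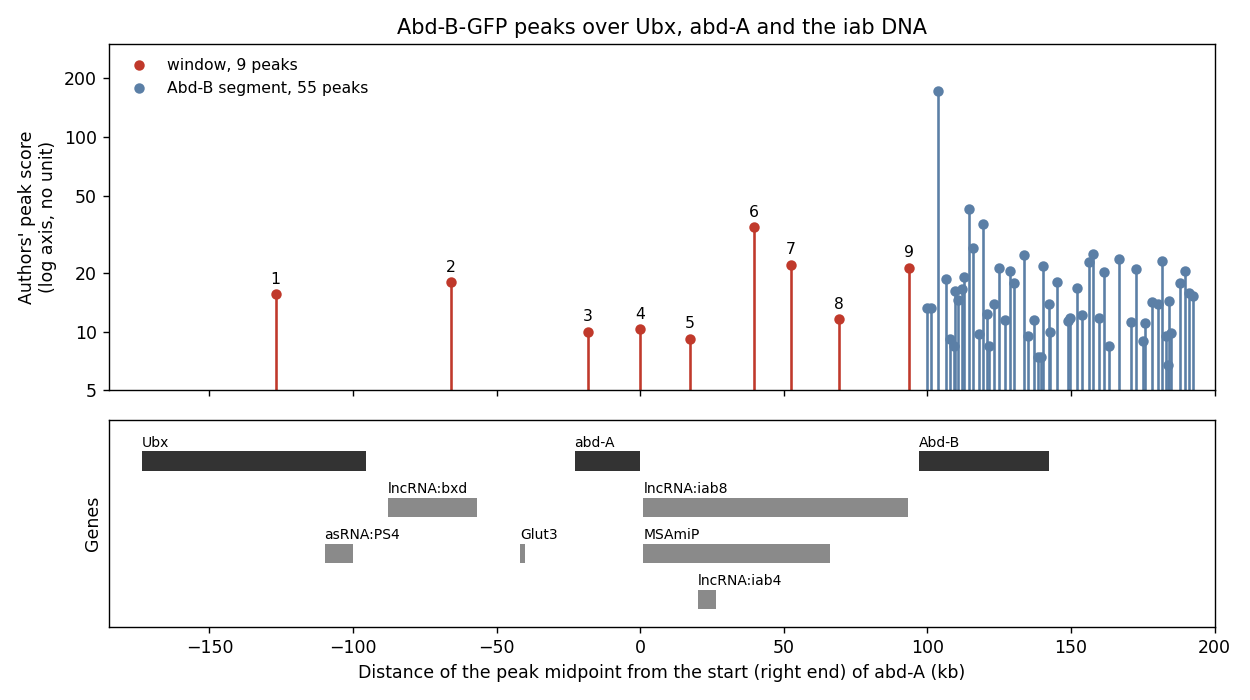
The 9 peaks of the window (red, numbered) and the 55 peaks of the Abd-B segment (blue) are plotted by the distance of their midpoint from the abd-A start in kb and by the authors' score on a log axis, with the main genes drawn as bars below. The Ubx side carries 2 peaks and the abd-A and iab side 7, with peak 4 at the abd-A start and the highest score, 34.4, at peak 6.

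Ubx, 77.8 kb long, held 1 peak. Peak 1 ran from 12528610 to 12528967 with a width of 358 bp, the third largest of the window. Its score was 15.6, rank 1281 of the list, and 60.4% of arm peaks scored lower. It lay well inside the gene, 31.4 kb from the Ubx start and 46.4 kb from the other end. It is also the leftmost peak of the window, and the next peak beyond it, outside the window, lay 76.7 kb away and had a score of 10.5.

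The start of Ubx had no peak near it in this list. The nearest edge, that of peak 2, was 29.6 kb away on the upstream side, and the edge of peak 1 was 31.2 kb away inside the gene. The space between peaks 1 and 2 was 60.8 kb, the longest gap within the window. Such gaps are common in this list, since 589 of the 2650 gaps on the arms were at least as long. The antisense RNA asRNA:PS4, annotated within the span of Ubx, held no peak, and its nearest was peak 1 at 16.9 kb.

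Between Ubx and abd-A, 72.8 kb held a single peak. Peak 2 ran from 12589763 to 12590072, was 310 bp wide and had a score of 18.0, rank 1021 of the list and the fourth highest of the window. It fell inside lncRNA:bxd, a long non-coding RNA of the bxd region that is transcribed from the DNA controlling Ubx. Its midpoint was 22.1 kb from the left end of lncRNA:bxd and 8.99 kb from the right end. The other annotated genes of this interval held no peak. The nearest peak was 12.7 kb from CG31275, 19.1 kb from lncRNA:CR44945, 21.8 kb from Glut3, a glucose transporter gene by name, 10.6 kb from lncRNA:CR45750 and 9.91 kb from lncRNA:TS16.

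The abd-A gene, 22.8 kb long, held 2 peaks, both of low score. Peak 4 ran from 12655541 to 12655953 and spanned the annotated start of abd-A. The start lay 230 bp from the left edge of the peak, 182 bp from its right edge and 24 bp from its midpoint. With 413 bp it was the widest peak of the window, and 63.7% of arm peaks were narrower. Its score was only 10.3, rank 2289 of the list, and 23.8% of arm peaks scored lower.

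This placement rests on the shift between releases being exact to within those margins. The rounded right bound that the selection rule gives for abd-A lies 229 bp to the right of the shifted one, and 47 bp outside the peak. With the rounded bound for Ubx, the nearest peak edge was 29763 bp from the start. Peak 3 ran from 12637505 to 12637780, 18.1 kb from the abd-A start and 4.71 kb from the other end of the gene. Its width was 276 bp and its score 10.0, rank 2364 of the list.

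The iab DNA from abd-A to Abd-B, 97.2 kb long, held 5 peaks and the 3 highest scores of the window. Peak 6 ran from 12695050 to 12695397, was 348 bp wide and had a score of 34.4, the highest of the window. It ranked 362 of 2949 in the list and 47 of 694 on 3R, and 91.1% of arm peaks scored lower. Peak 7 followed 12.8 kb further on, from 12708177 to 12708515, and had a width of 339 bp and a score of 22.1, rank 754. Both lay inside lncRNA:iab8 and inside MSAmiP, which the gene table lists as a protein-coding gene over part of the same DNA.

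Peak 9 ran from 12749298 to 12749706, with a width of 409 bp and a score of 21.3, rank 800 of the list. It was the rightmost peak of the window and the only one of the 9 in no annotated gene. Its left edge lay 345 bp beyond the right end of lncRNA:iab8. The iab-8 RNA is known to be transcribed from the Abd-B side towards abd-A, so that end is taken as its start, and peak 9 lay just upstream of it. The left end of Abd-B, its 3′ end, was 3.23 kb further to the right.

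The remaining iab peaks were weaker. Peak 5 ran from 12672989 to 12673285, was 297 bp wide and had the lowest score of the window, 9.18, rank 2568. It lay inside lncRNA:iab8 and 2.44 kb from lncRNA:iab4, the primary transcript on the opposite strand that carries mir-iab-4. Peak 8 ran from 12724794 to 12725008 and was the narrowest of the window at 215 bp, with a score of 11.6, rank 1954. It also lay inside lncRNA:iab8, 24.1 kb from its right end, and 1.21 kb from lncRNA:CR43617.

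The microRNA genes of the complex held no peak. mir-iab-4 and mir-iab-8 are made from opposite strands of the same 68 bp, and their products are known to repress Hox genes of the complex, Ubx among them. The nearest peak was peak 5 at 8.71 kb. The long precursor of mir-iab-8, lncRNA:iab8, held 4 of the 9 peaks over its 92.1 kb, and MSAmiP held 3 of these over 65.2 kb.

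Together, 17 annotated genes met the window, counting modSP and Abd-B, which only reach into its ends. Of these, 5 held the midpoint of at least 1 peak, namely Ubx, lncRNA:bxd, abd-A, MSAmiP and lncRNA:iab8. By class, these were 3 of 7 protein-coding genes, 2 of 7 lncRNAs, 0 of 2 microRNA genes and 0 of 1 antisense RNA. The 5 genes with a peak were 22.8 to 92.1 kb long, and the 10 without a peak that lay wholly in the window were 0.068 to 9.83 kb long, so these counts follow gene length. At least 1 gene covered 84.1% of the window, and 8 of the 9 peaks (88.9%) lay in at least 1 gene, a share near that background.

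The scores and widths of the 9 peaks lay within the range of other arm peaks. Their scores ranged from 9.18 to 34.4 with a median of 15.6, and 5 of 9 were above the median of 13.5 for arm peaks. A score of at least 14.2, reached by 1475 peaks of the list, was found at 5 of 9 peaks (55.6%), against 46.1% of all arm peaks. A score of at least 22.4, reached by 737 peaks of the list, was found at 1 of 9 peaks (11.1%), against 20.4% of all arm peaks. The 95% exact Clopper-Pearson intervals of the window's shares were 21.2 to 86.3% and 0.281 to 48.2%. They treat the 9 peaks as independent draws, cover counting error only and give no test against the arms. The 95% intervals of the medians, bounded by values of single peaks, were 10.0 to 22.1 for score and 276 to 409 bp for width. They also take the 9 peaks as draws, although these are all the peaks of the window. Such wide intervals hide change. With only scores of at least 14.2 kept, a median score of 21.3 and a share of 20.0% at 22.4 or more still lay inside them. The widths ranged from 215 to 413 bp with a median of 339 bp, against 343 bp on the arms, where peaks reached 5065 bp.

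**Figure D2:**
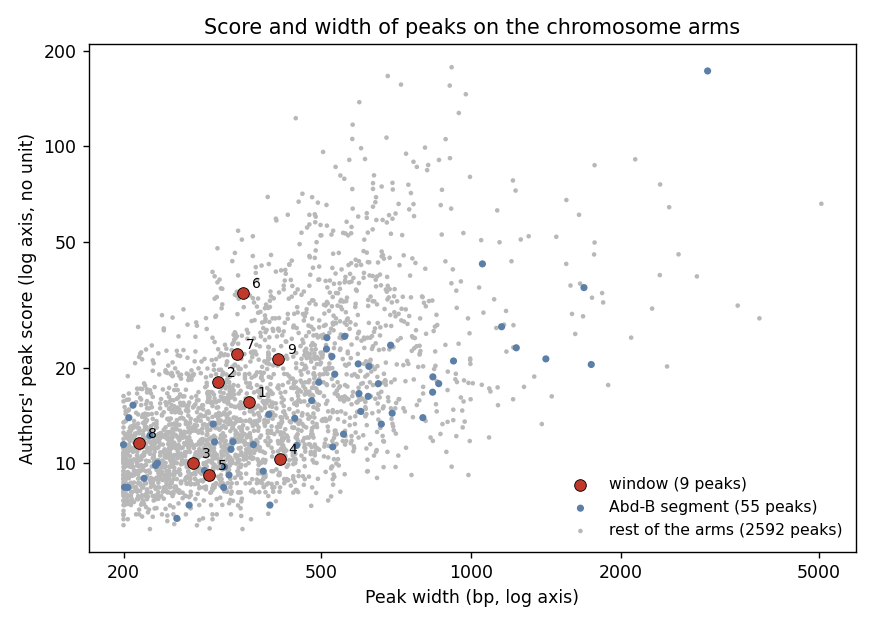
Each point is a peak on the chromosome arms, by width in bp and the authors' score, both on log axes; the window's peaks are red and numbered, those of the Abd-B segment blue and the rest of the arms grey. The red points lie between 215 and 413 bp and between scores of 9.18 and 34.4, inside the grey cloud.

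In the full list, the window held more peaks than most stretches of its length. Its 9 peaks correspond to 32.7 per Mb, against 23.0 per Mb on 3R outside the window and the Abd-B segment. With scores of at least 14.2, the window held 18.2 per Mb, against 10.2 on the arms. The direction turned with scores of at least 22.4, at 3.64 per Mb, from 1 peak, against 4.51 on the arms. When the arms were divided into 432 tiles of 275 kb, the median tile held 5 peaks with quartiles at 3 and 8. Fewer than 9 peaks were found in 340 tiles (78.7%), 17 tiles held 9, and 75 held more. The fullest tile, with 66 peaks, overlaps the right part of the window and takes in the Abd-B segment.

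**Figure D3:**
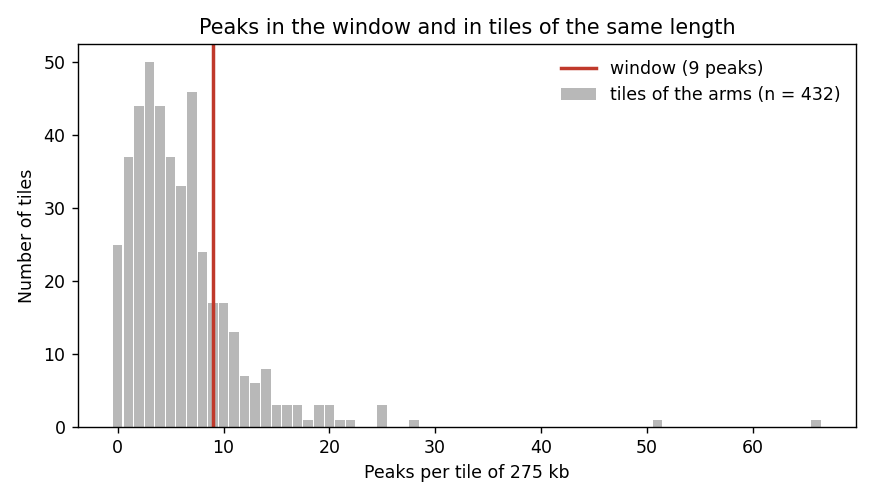
The bars count the 432 tiles of 275 kb along the chromosome arms by the number of peaks they hold, and the red line marks the 9 peaks of the window. The line lies to the right of 340 tiles, and 75 tiles lie to the right of it.

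The peaks of the window stood apart from each other. All 8 gaps between them were longer than 10 kb, against 56.9% of gaps on the arms. The right edge of the window was drawn to leave out the dense run at Abd-B, so the short gaps there were excluded by that choice. Peak 9 lay 5.63 kb from the first peak of that run, and 34.2% of arm gaps were shorter than this. The 8 gaps between the window's peaks ranged from 12.8 to 60.8 kb with a median of 19.8 kb, against a median of 14.3 kb on the arms. These 8 gaps fell between the 48.1% and the 77.8% points of arm gaps by length, so none was short for this list and none was extreme. From peak 3 to peak 9 the 6 gaps lay between 12.8 and 24.3 kb.

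**Figure D4:**
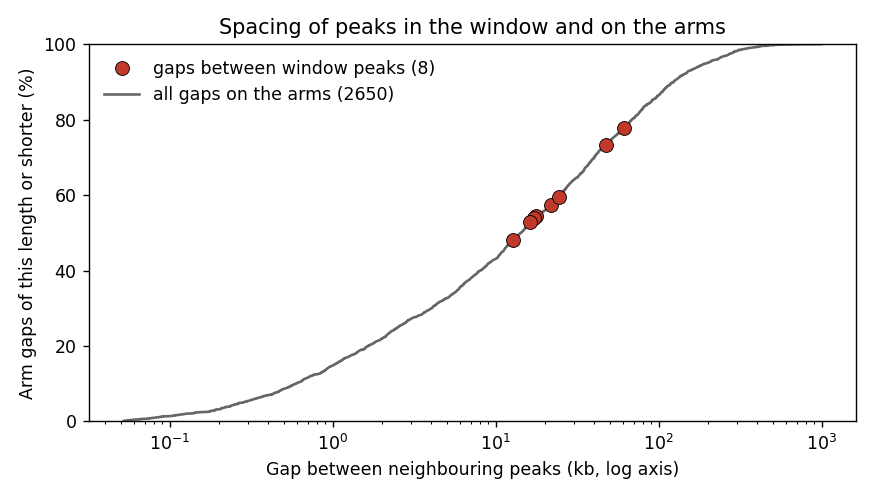
The line gives the percentage of the 2650 gaps between neighbouring arm peaks that are of a given length in kb (log axis) or shorter, and the red points mark the 8 gaps of the window. The red points begin at 12.8 kb and end at 60.8 kb.

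The right edge of the window was placed where the dense run of peaks at Abd-B begins, and that run was drawn by its short gaps. The difference in peak density between the window and the Abd-B segment is therefore set by how both were drawn, and is given only as a description. Peak 9 was followed after 5.63 kb by the first peak of the Abd-B segment, from where 55 peaks filled 93.0 kb with no gap over 5 kb. The window had 1 peak per 30.6 kb, the Abd-B segment 1 per 1.69 kb. Peaks covered 1.08% of the window and 35.9% of the segment. Median scores were close, at 15.6 in the window and 14.3 in the segment, while median widths were 339 bp in the window and 512 bp in the segment. The highest score was 34.4 in the window and 172.6 in the segment. The segment overlaps Abd-B, the gene whose copy the transgene carries, and also runs beyond the annotated gene. Abd-B spanned 97.2 to 142.2 kb from the abd-A start, and the last segment peak lay at 192.4 kb, past other genes such as Actn3 and AhcyL2. How much DNA on either side of Abd-B the transgene carries is not stated in the sources used here. The part of extra gene copies in the difference was not tested.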

How the data were processed

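The analysis used 1 deposited peak list for the whole series, a GFF version 3 table on FlyBase release 5, per the file headers, with MACS as its source. Without parameters, BDGP5, MACS2, BWA and CASAVA (1.7.0.3, 1.7.0.2) are listed per the submitters' processing notes. Each row gives the authors' peak position and a score from the authors' peak caller. The lowest start is 0, so 1 was added to starts. No source used here says whether replicates were pooled.

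Tables were made in Python 3.11.15 (pandas 2.3.3, scipy 1.17.1, numpy 2.4.6). A peak belonged to a gene or interval by its midpoint. The extent of an arm was the end of its last peak. The Abd-B segment was the run of peaks right of the window with gaps up to 5 kb. Counting and merging were tried on simulated peaks. Every peak and every gene meeting the window was named. The members and lists were chosen with earlier results of these data known. A planned motif scan of promoters was not run, since no sequence was used here. Alternatives covered score, merging, edges, membership, start convention, gene bounds and reference point, and those added after seeing the data are named as such.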

Additional observations from a re-analysis of the deposited data

How the results depend on the processing

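14 values were recomputed under up to 9 alternatives, 96 recomputations in all. Of these, 74 stayed, which meant within 1.5 times the value given. For medians and the share in the 737 highest-scoring peaks, it meant within the wide 95% interval. Merging peaks under 1 kb apart, counting any overlap, moving the edges in by 5 kb and reading starts as counting from 1 moved none of the 12 values tried. These settings could hardly move a value and make up many of the 74, so that count does not measure stability. The shortest gap was 12.8 kb, no peak crossed an edge, all 9 peaks stayed inside the narrower edges, and starts shifted by 1 bp. The rounded gene bounds, tried for 6 values, moved 1, the distance from the abd-A start to the nearest peak, which became 47 bp in place of 0. Moving the edges out by 5 kb took in 3 peaks of the Abd-B segment and raised coverage to 2.07%. The score filters remove peaks by construction. With only the 1475 highest scores kept, 5 peaks of the window were left (18.2 per Mb, 0.641% covered), with 0 inside abd-A and 3 between abd-A and Abd-B, and the peak nearest to the abd-A start was 39279 bp away. With only the 737 highest kept, peak 6 was left (1 peak, 3.64 per Mb, 0.127% covered, median score 34.4, and by construction a share of 100%). It lies between abd-A and Abd-B, so there were 0 inside Ubx, 0 between Ubx and abd-A and 0 inside abd-A, and it was 134902 bp from the Ubx start and 39279 bp from the abd-A start. The density of the Ubx side relative to the arms turned, from 0.600 times to 1.30 times with the 1475 and 0 times with the 737 highest scores. The density comparison, and the rounded bounds for distances, were added after seeing the data. Measured to its midpoint, the peak at the abd-A start was 24 bp away in place of 0. The peak at the abd-A start therefore depends on peaks of low score being kept. The list has no value per library, so no paired analysis was possible, no library could be left out and depth is unknown.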
